A study of Homo sapiens with 24 samples.

Results

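Satellite repeats are tandem arrays that fill the centromeres, the flanking pericentromeres and other heterochromatic blocks of human chromosomes. The 10 satellite names described here are SST1, ALR/Alpha, SATR1, SATR2, HSAT4, HSAT5, HSATII, GSAT, GSATII and GSATX, taken by name from a deposited table of 992 repeat names. Every name starting with ALR was to be taken, and ALR/Alpha was the one that did. The table sums all genomic copies of a name, so a value belongs to a family and has no single position. Of the 10 names, 8 passed the filter on low counts, as did 929 of all 992 repeat names, and GSAT and GSATX did not.

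Satellite arrays are classic sites of H3K9 methylation, the methylation of lysine 9 on histone H3. SUV39H1 and its paralog SUV39H2 trimethylate H3K9 at pericentromeres, where HP1 proteins bind the mark and keep the arrays compact. G9a (encoded by EHMT2) works with GLP (encoded by EHMT1) and mainly places dimethylation on H3K9. Transcripts of satellites are scarce in most cells and are known to increase in some cancers, in heat-shocked cells and when DNA methylation is lost.

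The RNA came from U937, an established human myelomonocytic line. Cells received DMSO, 2 µM or 4 µM UNC0638, which inhibits the catalytic activity of G9a and GLP, and the UNC0638 cells were harvested after 3 days. Other cells carried G9a hairpin 2 or 3, SUV39H1 hairpin 2 or 4, or a scrambled hairpin, and the labels give lentiviral delivery and 3 days of puromycin for the G9a and SUV39H1 hairpins. They state neither a harvest time for DMSO nor a selection for scrambled. Each of the 8 groups had 3 libraries, and nothing in the labels says that these came from separate cultures, so p-values measure the spread between these samples, which may be technical. The cells of a hairpin group are a selected mixture that still holds part of the targeted transcript, as the values below show.

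Libraries held 31545854 to 53803704 gene counts and 1837411 to 4163513 repeat counts. EHMT2 stood at 73.7 ± 2.79 and 73.2 ± 3.69 CPM (counts per 1000000 gene counts; SD, n = 3 each) with G9a hairpins 2 and 3, against 144 ± 8.52 CPM with scrambled. SUV39H1 stood at 18.6 ± 0.403 and 21.1 ± 1.84 CPM with SUV39H1 hairpins 2 and 4, against 58.2 ± 1.67 CPM with scrambled. The 10 myeloid markers, 9 of them above 1 CPM, summed to 2229 to 5787 CPM per library and the 6 T cell and NK cell markers to 0.264 to 1.24 CPM. The 5 B cell markers summed to 27.9 to 65.1 CPM, with 3 of them above 1 CPM. The 5 erythroid markers reached at most 0.305 CPM and the 8 epithelial and fibroblast markers at most 1.94 CPM.

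A few libraries stood apart. HSATII had 49 counts in scrambled replicate 2 and 54 in SUV39H1 hairpin 4 replicate 2, against 1 to 15 in each of the other 22. RN7SK, a nuclear RNA without a poly(A) tail, stood at 41.4 CPM in SUV39H1 hairpin 2 replicate 3 and 24.9 CPM in SUV39H1 hairpin 4 replicate 2, and at no more than 7.04 CPM elsewhere. Results that rest on these 3 libraries are given with and without them, an alternative chosen after the data were seen.

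The kit, TruSeq RNA v2, enriches poly(A) RNA and does not mark strand. Satellite RNA without a tail is therefore sampled poorly, and sense and antisense transcripts cannot be told apart. Reads from near-identical copies of an array may map to many places, and how the authors counted such reads is not given in the sources used here. As all copies of a name are summed, reads on any copies within genes cannot be told apart from reads on arrays.

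SST1 was by far the most abundant of the 10 names. SST1 is a tandem repeat with clusters on several chromosomes that loses DNA methylation in some tumours. It took 166186 counts over the 24 libraries, 81.9% of all counts on the 10 names, and averaged 161 CPM. Per annotated length, SST1 had 0.436 CPM per kb of its 368429 annotated bases and ranked 16 of 992 repeat names. How much of the arrays this annotation covers is not given in the sources used here, so such ranks compare annotated copies only. The median repeat name had 0.0276 CPM per kb. HSAT4 followed at 0.0215 CPM per kb, SATR2 at 0.0109, HSAT5 at 0.0107, GSATII at 0.00941 and SATR1 at 0.00642 CPM per kb. ALR/Alpha, the alpha satellite of centromeres that carries the binding site of CENPB, had the longest annotation, 7446336 bases, and 0.00244 CPM per kb. It ranked 956 of 992 per length although it was second among the 10 names in raw counts, with 19032. HSATII, the pericentromeric human satellite II, ranked 971 with 266 counts in all. The gamma satellites GSATX and GSAT ranked 981 and 985, with 30 and 26 counts in all 24 libraries together.

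Across the 8 groups, all 8 tested satellite names differed (edgeR's quasi-likelihood test with Benjamini-Hochberg adjustment), and 92.8% of all tested repeat names did so as well. The adjusted p of this test was 5.39e-19 for SST1, which ranked second of the 929 names by p. It was 3.04e-14 for HSAT4, 7.2e-13 for SATR1, 5.21e-12 for SATR2 and 0.027 for HSATII, each by the same edgeR test. The names fell into different patterns. SST1 was highest in DMSO and lowest with SUV39H1 hairpins, SATR1 and SATR2 were high with all 4 targeting hairpins, and HSAT4 and GSATII were highest with SUV39H1 hairpins.

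**Figure D1:**
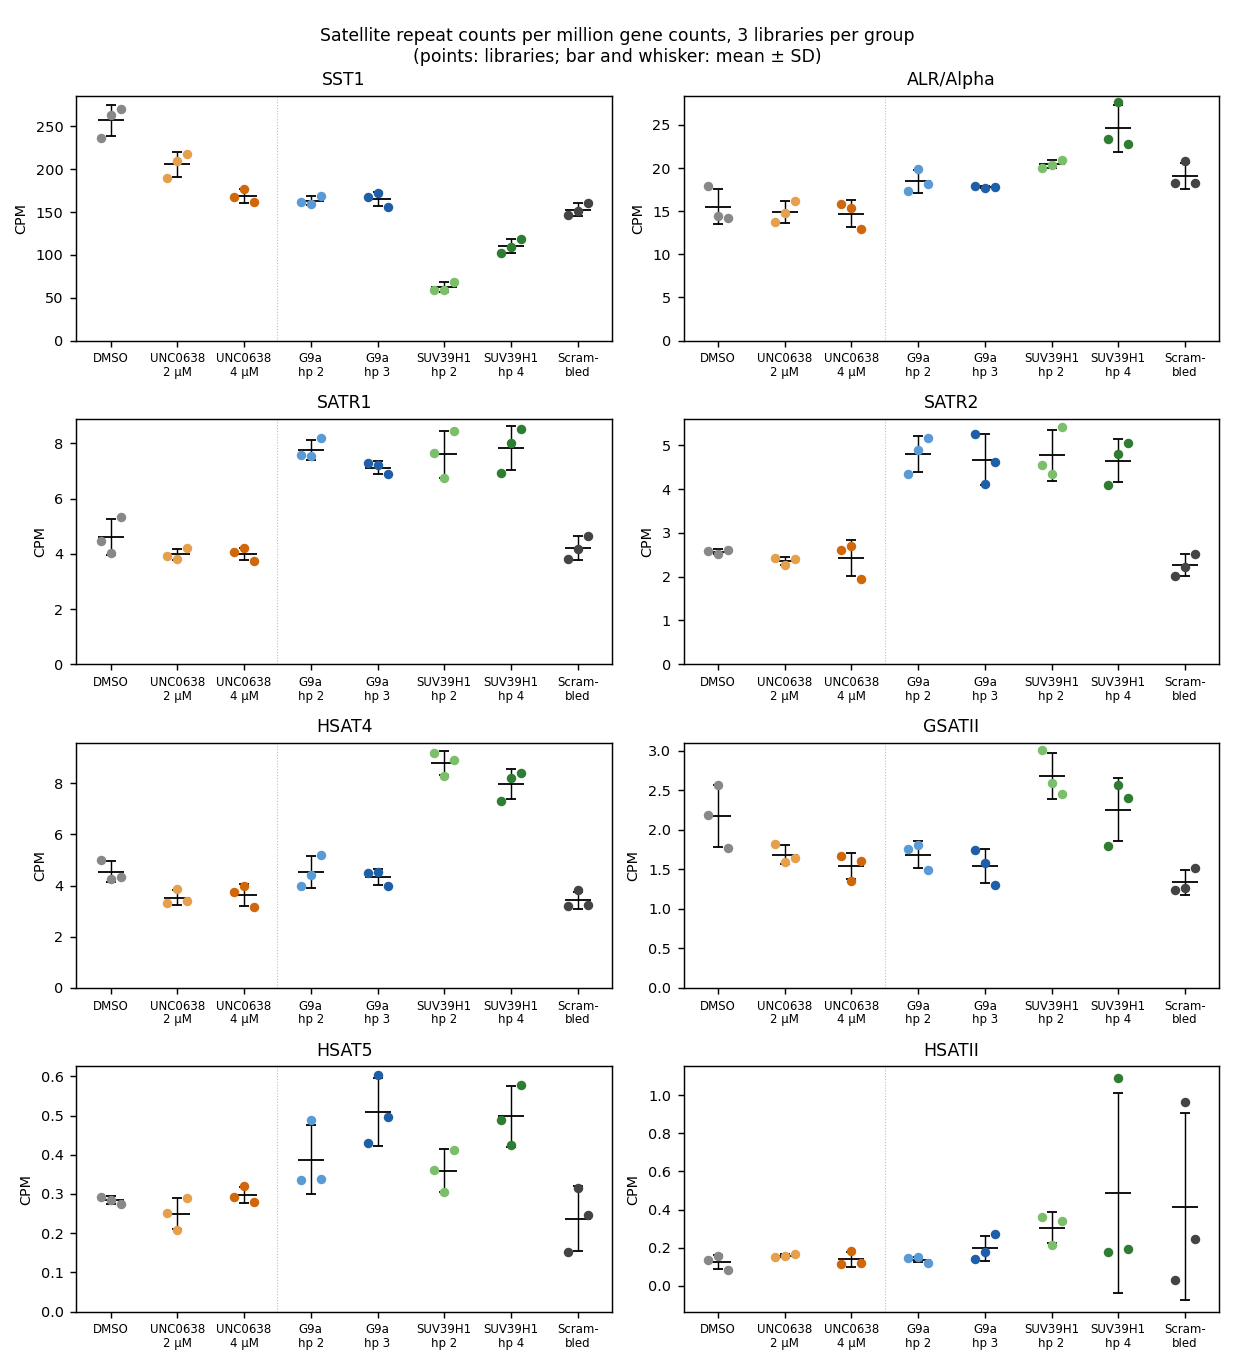
Each panel plots 1 satellite name: the y axis is CPM (counts per 1000000 gene counts after TMM scaling), points are libraries, and the bar with whiskers is the mean ± SD of 3 libraries. SST1 steps down over DMSO, 2 µM and 4 µM UNC0638, SATR1 and SATR2 are raised in all 12 libraries with G9a or SUV39H1 hairpins, and HSATII is highest in single libraries of SUV39H1 hairpin 4 and scrambled.

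The first question was what inhibition of G9a and GLP does to satellite RNA. SST1 fell with UNC0638, and more so at the higher dose. Its 3 libraries stood at 236, 264 and 271 CPM in DMSO, at 190, 209 and 218 CPM at 2 µM and at 167, 177 and 162 CPM at 4 µM. The 3 sets of libraries did not overlap. SST1 changed by a log2 fold change of -0.61 ± 0.06 (SE) at 4 µM against DMSO (Benjamini-Hochberg adjusted p = 6.47e-08 by edgeR's quasi-likelihood test), or 0.657 of the DMSO level. By size this was rank 7 of 929 repeat names counted from the most lowered. At 2 µM the change against DMSO was -0.32 ± 0.06 (adjusted p = 0.00333, the same edgeR test). Between 4 µM and 2 µM it was -0.29 ± 0.06 (adjusted p = 0.0257, the same edgeR test), and this call ended in the edgeR fit when 2 µM replicate 2 or 3, or 4 µM replicate 1 or 3, was left out (-0.28 to -0.24). In bulk RNA, fewer cells that carry a transcript and less of it per cell cannot be told apart. The summed myeloid markers were lower with the inhibitor too, with 2443 to 2821 CPM in DMSO, 2255 to 2396 CPM at 2 µM and 2229 to 2441 CPM at 4 µM, and neither dose overlapped DMSO. At each dose 2 of these 10 markers were called higher and 4 lower. Among all 20147 tested genes, 3.83% were called higher and 3.34% lower at 2 µM, and 10.2% and 9.73% at 4 µM. The summed B cell markers ran from 53.5 to 60.3 CPM in DMSO, from 58.8 to 65.1 CPM at 2 µM and from 57.0 to 63.6 CPM at 4 µM, and the part of these markers in the satellite values was not tested.

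SST1 was the only 1 of the 8 tested satellite names called at 4 µM against DMSO, where 4.2% of all repeat names were called lower and 2.58% higher. The median log2 change was -0.16 over the 8 names and -0.06 over all 929. HSAT4, a human satellite family of the repeat annotation, stood at 3.76, 3.99 and 3.17 CPM at 4 µM, against 5.01, 4.25 and 4.36 CPM in DMSO. All 3 libraries with the inhibitor were below all 3 in DMSO, with a log2 change of -0.33 ± 0.11 that did not pass (adjusted p = 0.0542 by edgeR's quasi-likelihood test). GSATII, a gamma satellite, stood at 1.67, 1.35 and 1.6 CPM at 4 µM, against 2.19, 2.57 and 1.78 CPM in DMSO. These libraries did not overlap either, and the change of -0.47 ± 0.15 did not pass (adjusted p = 0.0542, the same edgeR test). Leaving out single libraries brought HSAT4 or GSATII past the threshold, so the count of called names ranged from 1 to 3. It was 3 without G9a hairpin 3 replicate 3 and 2 without DMSO replicate 3, 4 µM replicate 2, G9a hairpin 2 replicate 3 or SUV39H1 hairpin 4 replicate 1.

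At 2 µM against DMSO, SST1 and HSAT4 were called lower, 2 of 8 names, where 4.09% of all repeat names were called lower and 0.753% higher. HSAT4 had 3.33, 3.85 and 3.38 CPM at 2 µM, a log2 change of -0.37 ± 0.11 (adjusted p = 0.0425, edgeR's quasi-likelihood test). That call ended without 2 µM replicate 1 or 3, DMSO replicate 1 or 3 or G9a hairpin 3 replicate 2, and also when libraries were scaled on the repeat table itself (-0.29). Between 4 µM and 2 µM SST1 alone was called, lower, where 0.108% of all repeat names were lower and 0.215% higher.

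The centromeric alpha satellite did not pass at either dose. ALR/Alpha had 17.9, 14.5 and 14.2 CPM in DMSO, 13.7, 14.8 and 16.2 CPM at 2 µM and 15.8, 15.4 and 12.9 CPM at 4 µM, and the groups overlapped. The 95% interval of its log2 change at 4 µM ran from -0.27 to 0.10. SATR1 at 4 µM changed by -0.22 ± 0.11 and SATR2 by -0.10 ± 0.13, with intervals of -0.44 to -0.01 and -0.37 to 0.18. Neither passed the adjusted threshold in edgeR's test. HSAT5 changed by 0.06 ± 0.28 and HSATII by 0.17 ± 0.97, intervals wide enough to hide a change of either sign at 4 to 14 counts per library.

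**Figure D2:**
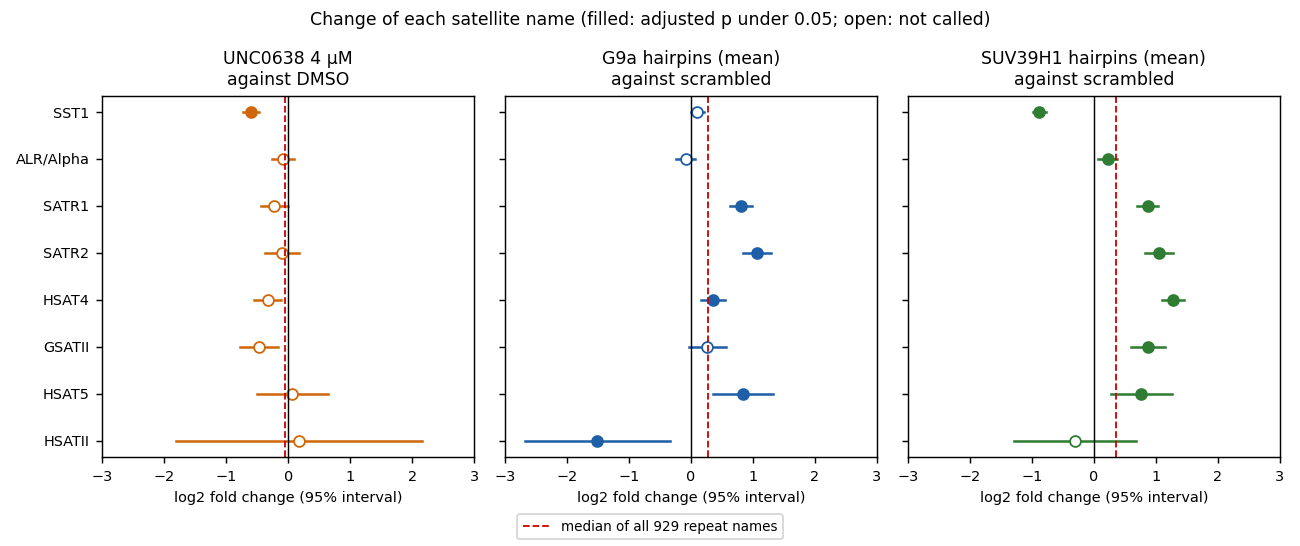
Log2 fold changes (x axis) of the 8 tested satellite names (rows) in 3 comparisons, with 95% intervals of the edgeR fit. Filled points passed an adjusted p of 0.05, and the dashed line is the median of all 929 repeat names (-0.06 at 4 µM UNC0638, 0.28 with G9a hairpins and 0.36 with SUV39H1 hairpins).

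The second question was how the knockdowns changed satellite RNA. Both raised repeat RNA as a whole on the scale of gene counts. Repeat counts came to 6.96% and 6.79% of gene counts with G9a hairpins 2 and 3 and to 7.40% and 7.79% with SUV39H1 hairpins 2 and 4, against 5.76% with scrambled (means of 3 libraries). The median log2 change over all 929 repeat names was 0.28 for the mean of the G9a hairpins and 0.36 for the mean of the SUV39H1 hairpins. The satellite changes are to be read against these medians. The main changes are also given with libraries scaled on the repeat table, which moves these medians to 0.02 and 0.01. On that scale 164 repeat names were called higher and 200 lower with G9a hairpins, and 234 higher and 244 lower with SUV39H1 hairpins, against 639 and 38, and 701 and 62, with gene scaling. The knockdowns are set against the same 3 scrambled libraries, as the doses are against the same 3 DMSO libraries. Nuclear RNAs moved in the same libraries. Of 4 tested nuclear retained RNAs, 3 were called higher with G9a hairpins, and 3 were called higher and 1 lower with SUV39H1 hairpins. The shares of all 20147 genes called higher and lower were 25.0% and 24.9% with G9a hairpins and 35.1% and 32.7% with SUV39H1 hairpins. MALAT1 and NEAT1, nuclear noncoding RNAs, were higher by log2 changes of 1.26 and 1.33 with G9a hairpins and by 0.97 and 1.38 with SUV39H1 hairpins. Markers of cell identity moved too. The summed myeloid markers ran from 3024 to 3275 CPM in the 6 G9a libraries, from 5687 to 5787 CPM with SUV39H1 hairpin 2 and from 3683 to 3715 CPM with SUV39H1 hairpin 4, against 2283 to 2407 CPM with scrambled. Of these 10 markers, 4 were called higher and 1 lower with G9a hairpins, and 9 were called higher with SUV39H1 hairpins. The summed B cell markers ran from 32.8 to 33.6 CPM with G9a hairpins and from 27.9 to 40.6 CPM with SUV39H1 hairpins, against 50.6 to 57.0 CPM with scrambled. The part of these RNAs and markers in the satellite results was not tested.

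With G9a hairpins SATR2 rose the most among the satellite names, and SATR1 was raised in all 6 libraries as well. They are separate satellite families in the repeat annotation. SATR1 stood at 7.57, 7.55 and 8.2 CPM with G9a hairpin 2 and at 7.29, 7.21 and 6.88 CPM with hairpin 3, against 3.8, 4.18 and 4.66 CPM with scrambled. All 6 libraries lay above all 3 scrambled ones. The log2 change for the mean of the hairpins was 0.81 ± 0.09 (Benjamini-Hochberg adjusted p = 9.26e-09 by edgeR's quasi-likelihood test), or 1.76-fold. SATR2 stood at 4.35, 4.89 and 5.16 CPM with hairpin 2 and 5.27, 4.12 and 4.62 CPM with hairpin 3, against 2.02, 2.23 and 2.53 CPM with scrambled. All 6 libraries were again above all scrambled ones. It was 2.09-fold higher, rank 8 of 929 repeat names from the most raised, a log2 change of 1.06 ± 0.11 (adjusted p = 5.89e-09, the same edgeR test). Scaled on the repeat table, the changes of SATR1 and SATR2 were 0.55 and 0.80 and both stayed called (adjusted p = 3.28e-06 and 2.26e-07, edgeR).

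In all, 4 of 8 satellite names were called higher and 1 lower for the mean of the G9a hairpins, where 68.8% of all repeat names were called higher and 4.09% lower. On the repeat table's scale 2 were called higher and 3 lower. The other 2 that rose were HSAT4 and HSAT5. HSAT4 had 3.99, 4.42 and 5.21 CPM with hairpin 2 and 4.5, 4.52 and 3.99 CPM with hairpin 3, against 3.2, 3.82 and 3.24 CPM with scrambled. The DMSO libraries had 5.01, 4.25 and 4.36 CPM of HSAT4 and overlapped these hairpin libraries. Its change of 0.36 ± 0.10 from scrambled was close to the median of all repeats. On the repeat table's scale it was 0.10 and no longer called (adjusted p = 0.373, edgeR). HSAT5 had 14 to 24 counts per library with G9a hairpins, against 5, 16 and 10 counts with scrambled. In CPM the libraries did not overlap, with 0.337 to 0.603 CPM with G9a hairpins, against 0.151 to 0.315 CPM with scrambled. Its change of 0.84 ± 0.24 lost its call on the repeat table's scale (0.58, adjusted p = 0.0862, edgeR). GSATII changed by 0.27 ± 0.15 and did not pass.

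SST1 had 162, 159 and 169 CPM with G9a hairpin 2 and 168, 172 and 156 CPM with hairpin 3, against 146, 152 and 161 CPM with scrambled. The groups overlapped, and the change of 0.10 ± 0.05 did not pass (adjusted p = 0.0863, edgeR's quasi-likelihood test). It passed at 0.10 when only the compared libraries were fitted, at 0.12 without G9a hairpin 3 replicate 3 and at 0.14 without scrambled replicate 3. It turned to -0.16, also called (adjusted p = 0.0121, edgeR), on the repeat table's scale, so its direction with G9a hairpins depends on the scaling. ALR/Alpha changed by -0.08 ± 0.08 and was not called, and on the repeat table's scale it was called lower at -0.34 (adjusted p = 9.43e-05, edgeR). HSATII was called lower at -1.51 ± 0.57, but this rested on scrambled replicate 2. Without that library the change was 0.15, and without all 3 libraries that stood apart it was also 0.15, neither called. DESeq2 gave -1.37 and no call.

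Each G9a hairpin was also set against scrambled by itself. With hairpin 2 alone 3 names were called higher and 1 lower (66.1% and 3.23% of all repeat names), and with hairpin 3 alone 4 were called higher (60.3% of all repeat names higher and 3.55% lower). The lower name with hairpin 2 was HSATII, whose call ended without any 1 of the hairpin 2 libraries (-1.82 to -1.68), without scrambled replicate 2 (-0.10) and by DESeq2 (-1.63). On the repeat table's scale hairpin 2 had 2 names higher and 3 lower (131 and 184 of all repeat names), and hairpin 3 had 3 higher and 1 lower (122 and 169). There HSAT4 was called with neither hairpin (0.11 and 0.08), ALR/Alpha was called lower with both (-0.34 and -0.35), and SST1 was called lower with hairpin 2 (-0.19). Hairpin 2 against hairpin 3 gave 0 called satellite names by edgeR, 0 at an unadjusted p under 0.05 and 0 by DESeq2, and 0% of all repeat names were called in either direction. Of all 929 names, 28 had an unadjusted p under 0.05 between these hairpins. The interval of the difference was -0.06 to 0.31 for SATR1 and -0.18 to 0.26 for SATR2 on the log2 scale.

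With SUV39H1 hairpins SST1 fell. Of the 8 tested satellite names 6 were called higher, as were 75.5% of all repeat names. SST1 stood at 59.6, 59.5 and 68.9 CPM with SUV39H1 hairpin 2 and at 103, 110 and 119 CPM with hairpin 4, against 146, 152 and 161 CPM with scrambled. All 6 libraries lay below all scrambled ones and the hairpins did not overlap each other. The log2 change for the mean of the hairpins was -0.88 ± 0.05 (Benjamini-Hochberg adjusted p = 2.9e-14 by edgeR's quasi-likelihood test), and this SE leaves out the difference between the hairpins. By size it was rank 3 of 929 repeat names from the most lowered. It was -1.22 on the repeat table's scale. Against scrambled the change was -1.28 ± 0.06 with hairpin 2 (adjusted p = 4.01e-16, edgeR) and -0.47 ± 0.06 with hairpin 4 (adjusted p = 2.03e-07, edgeR).

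HSAT4 had the largest rise among the 8 satellite names with SUV39H1 hairpins, rank 11 of 929 repeat names from the most raised. It stood at 9.2, 8.27 and 8.92 CPM with hairpin 2 and 7.31, 8.22 and 8.41 CPM with hairpin 4, against 3.2, 3.82 and 3.24 CPM with scrambled. No hairpin library overlapped a scrambled one. It was 2.42-fold higher, a log2 change of 1.28 ± 0.09 (adjusted p = 6.65e-13, edgeR's quasi-likelihood test), and 0.93 on the repeat table's scale.

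The gamma satellite GSATII rose as well. GSATII had 3.01, 2.59 and 2.45 CPM with hairpin 2 and 1.8, 2.57 and 2.4 CPM with hairpin 4, against 1.24, 1.26 and 1.52 CPM with scrambled. The DMSO libraries had 2.19, 2.57 and 1.78 CPM of GSATII and overlapped both hairpins. The log2 change of GSATII from scrambled was 0.87 ± 0.14 (adjusted p = 1.59e-06, edgeR), and 0.53 on the repeat table's scale. SATR1 had 7.63, 6.74 and 8.43 CPM with hairpin 2 and 6.94, 8.02 and 8.51 CPM with hairpin 4, a change of 0.87 ± 0.09 from scrambled. SATR2 had 4.55, 4.33 and 5.42 CPM with hairpin 2 and 4.09, 4.81 and 5.04 CPM with hairpin 4, a change of 1.05 ± 0.11. Both were called in edgeR's test on either scale, at 0.52 and 0.71 when scaled on the repeat table.

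In all, 6 of 8 satellite names were called higher and 1 lower for the mean of the SUV39H1 hairpins, where 75.5% of all repeat names were called higher and 6.67% lower. On the repeat table's scale 4 were called higher and 1 lower. The median change was 0.82 over the 8 names and 0.36 over all 929. ALR/Alpha had 20.01, 20.4 and 21.0 CPM with hairpin 2 and 23.4, 27.7 and 22.7 CPM with hairpin 4, against 18.2, 20.9 and 18.3 CPM with scrambled. Its call at 0.22 ± 0.07 was below the median of all repeats, and on the repeat table's scale its sign turned (-0.12, adjusted p = 0.111, edgeR). HSAT5 was called at 0.77 ± 0.24, but not without scrambled replicate 1 (0.58) and not on the repeat table's scale (0.43). HSATII changed by -0.30 ± 0.48, was not called, and was called lower without SUV39H1 hairpin 4 replicate 2 (-0.99), and stood at 1.36 without scrambled replicate 2. Without the 3 libraries that stood apart, the same count of 6 higher and 1 lower was found and SST1 changed by -0.92, HSAT4 by 1.36 and HSATII by 0.64, the last not called.

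Hairpin 2 alone gave 4 names higher and 1 lower (70.3% and 6.35% of all repeat names), and hairpin 4 alone gave 6 higher and 1 lower (74.7% and 4.84%). On the repeat table's scale hairpin 2 had 4 names higher and 2 lower (236 and 249 of all repeat names), and hairpin 4 had 4 higher and 1 lower (190 and 203). There ALR/Alpha was called lower with hairpin 2 (-0.25) and not called with hairpin 4 (0.0063), HSAT5 lost its call with hairpin 4 (0.64), and SST1 stayed lower with both (-1.63 and -0.82). Set against each other, hairpin 2 had less SST1 than hairpin 4 by a log2 difference of -0.82 ± 0.06 (adjusted p = 1.15e-10, edgeR's quasi-likelihood test) and less ALR/Alpha by -0.27 ± 0.08 (adjusted p = 0.0293, edgeR). These were 2 of 8 names called lower, where 9.26% of all repeat names were called lower and 9.26% higher. The ALR/Alpha difference was not called without hairpin 2 replicate 1 or 2 or hairpin 4 replicate 2, nor without the 3 libraries that stood apart (-0.19). SATR1, SATR2, HSAT4 and GSATII did not pass between these hairpins, with log2 intervals of -0.21 to 0.15, -0.17 to 0.27, -0.03 to 0.32 and -0.01 to 0.54. Hairpin 2 also had more histone RNA. The 11 histone genes summed to 47.9 CPM with hairpin 2 and 19.7 CPM with hairpin 4, against 29.6 CPM with scrambled. The myeloid marker sums given above also differed between these hairpins. The part of either in the satellite values was not tested.

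**Figure D3:**
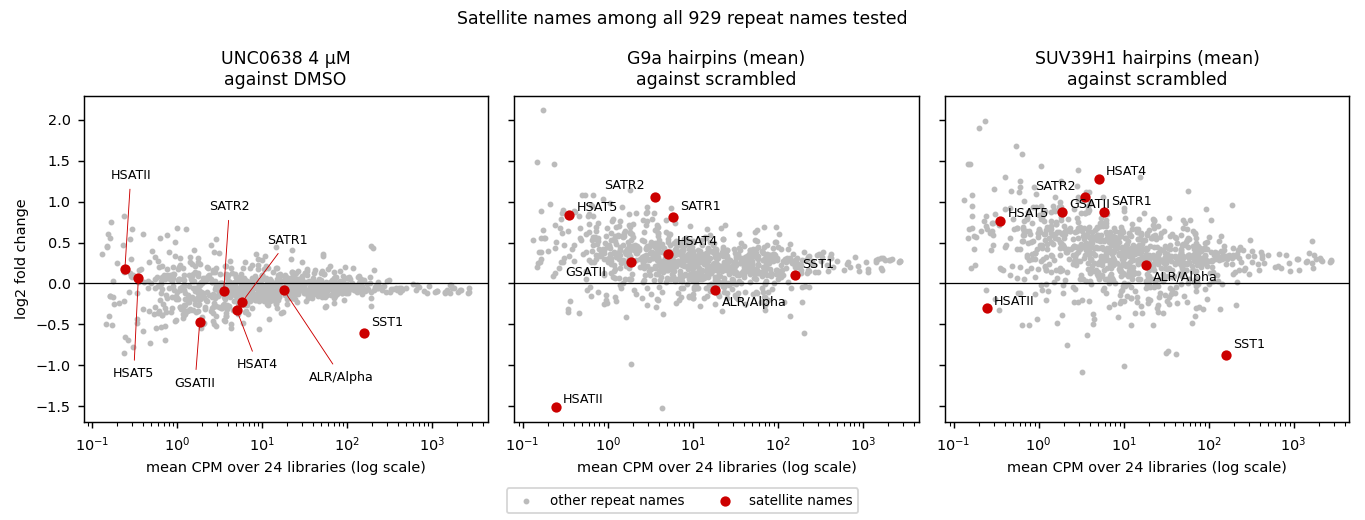
Every one of the 929 tested repeat names is a point, with mean CPM over 24 libraries on the x axis (log scale) and log2 fold change on the y axis, in 3 comparisons. Satellite names are in red, with SST1 at -0.61 at 4 µM UNC0638, 0.10 with G9a hairpins and -0.88 with SUV39H1 hairpins, and SATR2 at 1.06 and 1.05 with the hairpins.

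The knockdowns were then set against each other over their hairpins. SST1 was higher with G9a hairpins than with SUV39H1 hairpins by a log2 difference of 0.98 ± 0.05 (Benjamini-Hochberg adjusted p = 8.32e-17 by edgeR's quasi-likelihood test). HSAT4 was lower, at -0.92 ± 0.07 (adjusted p = 1.63e-12, edgeR), as were GSATII at -0.60 ± 0.10 (adjusted p = 2.24e-05, edgeR) and ALR/Alpha at -0.31 ± 0.06 (adjusted p = 0.000143, edgeR). This made 1 of 8 names higher and 3 lower, where 10.1% of all repeat names were called higher and 31.3% lower. SATR1 and SATR2 differed by -0.05 ± 0.06 and 0.01 ± 0.08, with intervals of -0.18 to 0.07 and -0.14 to 0.16. HSATII differed by -1.21 ± 0.51 without passing, and by -0.48 without the 3 libraries that stood apart. It passed in the compared libraries alone (-1.21, adjusted p = 0.0293, edgeR), without SUV39H1 hairpin 4 replicate 1 (-1.43) or 3 (-1.37) and without scrambled replicate 1 or 2 (-1.21 each). On the repeat table's scale the members called were the same in number, and all repeat names called were 231 higher and 189 lower.

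The controls differed from each other. SST1 was lower with scrambled than in DMSO by a log2 change of -0.75 ± 0.06 (adjusted p = 4.92e-10, edgeR's quasi-likelihood test). HSAT4 was lower, at -0.40 ± 0.11 (adjusted p = 0.0189, edgeR), and so was GSATII at -0.67 ± 0.16 (adjusted p = 0.00618, edgeR). ALR/Alpha was higher by 0.30 ± 0.09 (adjusted p = 0.0293, edgeR). This was 1 of 8 names higher and 3 lower, where 3.88% of all repeat names were called higher and 4.95% lower. Without scrambled replicate 2 the ALR/Alpha (0.23) and GSATII (-0.62) calls ended. The HSAT4 call ended without DMSO replicate 1 (-0.32) or scrambled replicate 1 or 3 (-0.36 each), and the ALR/Alpha call also ended without DMSO replicate 2 (0.26) or 3 (0.23). The scrambled cells carried a hairpin and the DMSO cells a solvent, so hairpin delivery and solvent cannot be told apart in this contrast.

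In order of SST1 level, DMSO came first at 257 ± 18.2 CPM, followed by 2 µM UNC0638 at 206 ± 14.5 CPM and 4 µM UNC0638 at 169 ± 7.79 CPM. G9a hairpin 3 stood at 165 ± 8.35 CPM, G9a hairpin 2 at 163 ± 5.16 CPM and scrambled at 153 ± 7.30 CPM. SUV39H1 hairpin 4 stood at 110 ± 8.11 CPM and SUV39H1 hairpin 2 at 62.7 ± 5.40 CPM (SD, n = 3 each). Among the 4 µM, G9a and scrambled groups, neighbours in this order overlapped in their libraries, and the other neighbours did not. The share of SST1 in the counts on the 10 names averaged 89.5% in DMSO, 88.4% at 2 µM and 86.3% at 4 µM. With hairpins it was 81.2% and 82.0% for G9a hairpins 2 and 3, 58.1% and 69.6% for SUV39H1 hairpins 2 and 4 and 83.1% for scrambled. Without SST1, the other 9 names summed to 45.04 ± 2.05 and 48.3 ± 4.37 CPM with SUV39H1 hairpins 2 and 4 and to 37.8 ± 1.98 and 36.3 ± 1.03 CPM with G9a hairpins 2 and 3, against 31.1 ± 2.55 CPM with scrambled. All repeat counts rose in the same groups. They came to 7.40% and 7.79% of gene counts with SUV39H1 hairpins and to 6.96% and 6.79% with G9a hairpins, against 5.76% with scrambled.

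**Figure D4:**
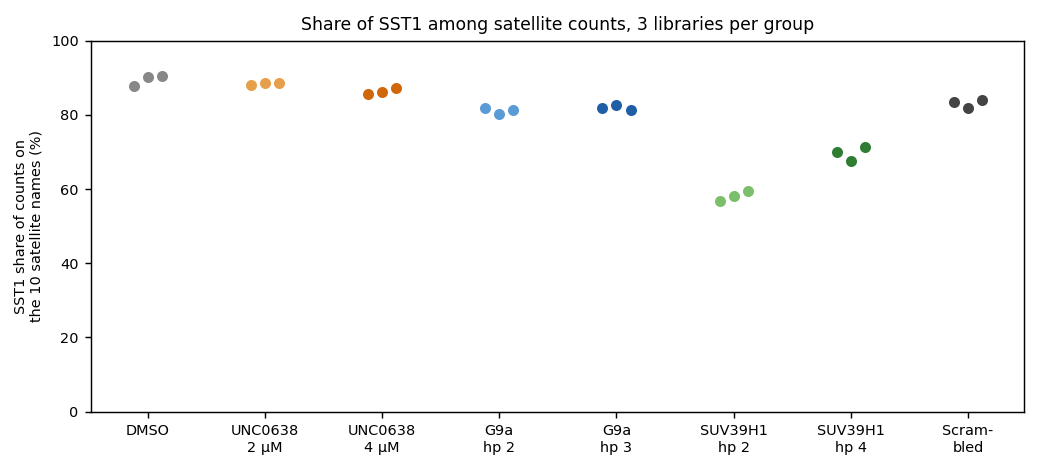
The y axis is the percentage of all counts on the 10 satellite names that fell on SST1, and each point is 1 library of the group on the x axis. The 9 libraries of DMSO and UNC0638 lie between 85.5% and 90.4%, and the SUV39H1 libraries lie lowest, with means of 58.1% and 69.6%.

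The inhibitor and the G9a hairpins target the same enzyme by different routes, and their effects were compared as a difference of responses, each against its own control. The response to 4 µM UNC0638 was lower than the response to the G9a hairpins in 5 of 8 satellite names, where 59.5% of all repeat names were called lower and 4.31% higher. The log2 difference was -1.16 ± 0.18 for SATR2 (adjusted p = 3.78e-06, edgeR's quasi-likelihood test) and -1.04 ± 0.14 for SATR1 (adjusted p = 6.49e-07, edgeR). It was -0.73 ± 0.21 for GSATII, -0.71 ± 0.08 for SST1 and -0.69 ± 0.14 for HSAT4. On the repeat table's scale SATR2 (-0.85), SATR1 (-0.73), SST1 (-0.40) and HSAT4 (-0.38) stayed called and GSATII (-0.42) did not. ALR/Alpha, which was not called on the gene scale, was called higher at 0.31 there. The difference between the controls in SST1, HSAT4 and GSATII stands inside this contrast and cannot be told apart from the treatments. Between the treated groups themselves, SST1 libraries overlapped. SST1 ran from 162 to 177 CPM at 4 µM. It ran from 159 to 169 CPM for G9a hairpin 2 and from 156 to 172 CPM for hairpin 3. GSATII libraries overlapped as well, and HSAT4 libraries met at 3.99 CPM. SATR1 and SATR2 libraries at 4 µM lay below all those of the G9a hairpins.

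HSATII, GSAT and GSATX were too sparse for firm statements, so their raw counts are given. HSATII had 6, 5 and 4 counts in DMSO, 6, 6 and 8 at 2 µM and 5, 8 and 6 at 4 µM. It had 6, 7 and 5 counts with G9a hairpin 2, 6, 7 and 12 with G9a hairpin 3, 15, 7 and 14 with SUV39H1 hairpin 2, 10, 54 and 9 with SUV39H1 hairpin 4, and 1, 49 and 10 with scrambled. (CATTC)n, the simple repeat from which human satellites II and III derive, had its highest counts in the same 2 libraries, 55 in SUV39H1 hairpin 4 replicate 2 and 54 in scrambled replicate 2. The next highest (CATTC)n count was 35, in SUV39H1 hairpin 2 replicate 3. GSAT had 0 to 4 counts per library and 0 in all 3 libraries at 4 µM, and GSATX had 0 to 5. A count of 0 allows up to 3 counts, or 0.0525 to 0.0951 CPM depending on the library, by counting error only.

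**Figure D5:**
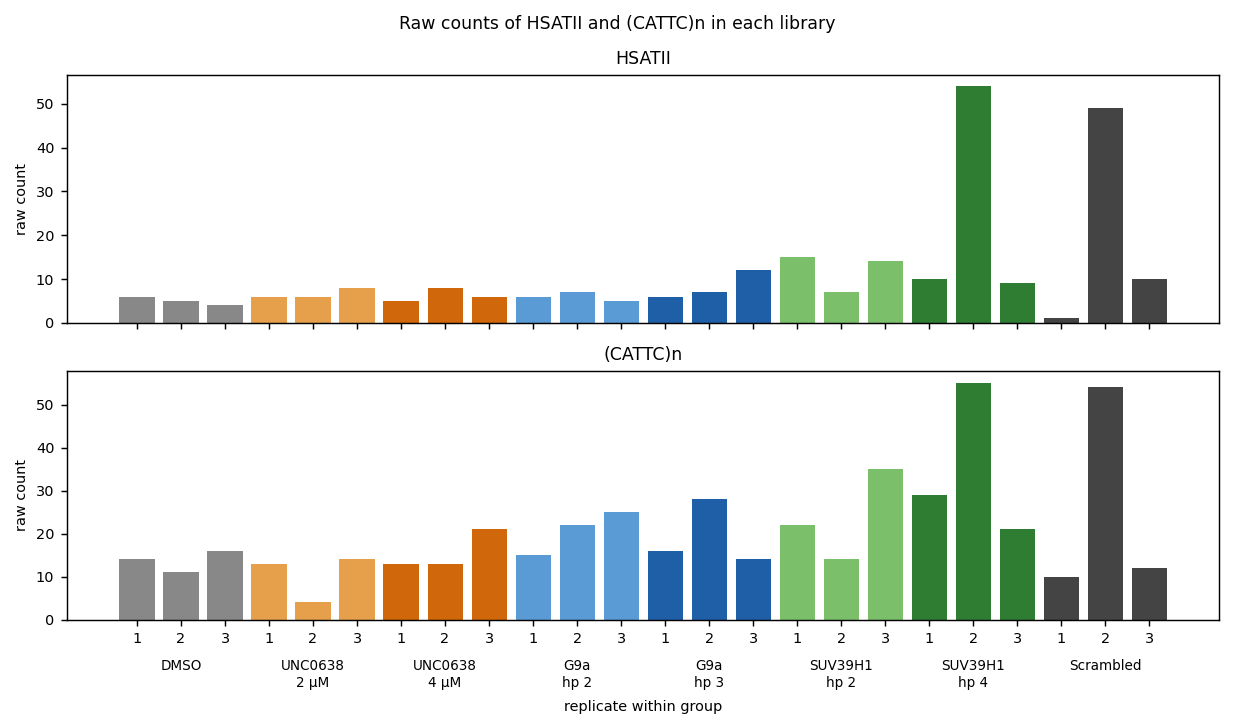
Bars are raw counts (y axis) of HSATII and of the simple repeat (CATTC)n in each of the 24 libraries, grouped by condition with replicate numbers on the x axis. SUV39H1 hairpin 4 replicate 2 (54 and 55 counts) and scrambled replicate 2 (49 and 54 counts) stand above all others for both names.

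Satellite names outside the 10 were looked at for comparison. Of 14 such names, 12 passed the filter. The mean of the G9a hairpins had 6 of 12 called higher, where 68.8% of all repeat names were. The mean of the SUV39H1 hairpins had 7 of 12 called higher, where 75.5% of all repeat names were. The median log2 changes of the 12 names were 0.25 and 0.34, close to those of all repeats. REP522 had the largest rise of these with SUV39H1 hairpins (1.09 ± 0.16), and BSR/Beta, the beta satellite, changed by 0.36 ± 0.08 with G9a hairpins and 0.34 ± 0.08 with SUV39H1 hairpins. At 4 µM UNC0638 0 of 12 were called by edgeR, with 3 at an unadjusted p under 0.05 and 0 by DESeq2. There 4.2% of all repeat names were called lower and 2.58% higher by edgeR. MSR1, a minisatellite with 64.7 CPM on average, changed by -0.0021 ± 0.057 at 4 µM, by -0.06 ± 0.05 with G9a hairpins and by 0.15 ± 0.05 with SUV39H1 hairpins. REP522, BSR/Beta and MSR1 were picked after their values were seen.

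The names most like SST1 over the 8 group means of log2 CPM were sought among 921 repeat names and 11985 genes. The 4 closest repeats were X9_LINE (Pearson r = 0.95), LFSINE_Vert (0.90), LTR16D1 (0.88) and Eulor9A (0.86). Their Spearman correlations were 0.76, 0.74, 0.86 and 0.48 in the same order. Eulor9A averaged 0.907 CPM with SUV39H1 hairpin 2 and 2.89 to 3.94 CPM in the other groups. The 4 closest genes were GTF3C1 (chromosome 16, 27470876 to 27561234, minus strand, hg19), FIBCD1 (chromosome 9, 133777825 to 133814673, minus strand), ASL (chromosome 7, 65540785 to 65558545, plus strand) and CSDC2 (chromosome 22, 41956767 to 41973745, plus strand), each with r = 0.99. GTF3C1 encodes a subunit of the RNA polymerase III factor TFIIIC and ASL encodes argininosuccinate lyase of the urea cycle. These correlations describe 8 points that share libraries and were picked as the highest of many. Among the satellite names, SATR1 and SATR2 followed each other (r = 0.99), and SST1 was negatively related to all 7 others (r = -0.83 to -0.37).

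Genes of satellite chromatin were counted in the same libraries, with lists chosen with earlier results of these data known. Of all 20147 tested genes, 10.2% were called higher and 9.73% lower at 4 µM UNC0638, 25% and 24.9% with G9a hairpins, and 35.1% and 32.7% with SUV39H1 hairpins. Of 11 HP1 and H3K9 methyltransferase genes, 1 was higher and 3 lower at 4 µM, 4 higher and 3 lower with G9a hairpins, and 4 higher and 6 lower with SUV39H1 hairpins. With SUV39H1 hairpins the paralog SUV39H2 fell by 0.92 on the log2 scale and EHMT1 by 0.56, beside SUV39H1 itself. EHMT2, the gene of G9a, was called lower there too (-0.29). With G9a hairpins the HP1 genes CBX5 and CBX1 rose by 0.35 and 0.18 while CBX3 fell by 0.35.

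Of 7 genes of DNA methylation at satellites, 3 were lower at 4 µM, 5 higher and 2 lower with G9a hairpins, and 2 higher and 5 lower with SUV39H1 hairpins. DNMT3B, the methyltransferase that is mutated in ICF syndrome, a disorder with undermethylated pericentromeres, fell by 0.12 on the log2 scale at 4 µM and by 0.60 with G9a hairpins, and rose by 0.20 with SUV39H1 hairpins. UHRF1, which brings DNMT1 to newly copied DNA, fell by 0.18 at 4 µM, rose by 0.21 with G9a hairpins and fell by 0.42 with SUV39H1 hairpins.

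Of 10 centromere chromatin genes, 1 was higher and 2 lower at 4 µM, 2 higher and 3 lower with G9a hairpins, and 4 higher and 4 lower with SUV39H1 hairpins. CENPA, the histone variant that marks the centromere, fell by 0.24 with G9a hairpins, and NPM1, a nucleolar histone chaperone, fell by 0.33 with G9a hairpins and by 0.94 with SUV39H1 hairpins. Of 10 other satellite silencing factors, 0 were called at 4 µM by edgeR's quasi-likelihood test, with 3 at an unadjusted p under 0.05, 1 was higher with G9a hairpins and 1 was higher and 8 lower with SUV39H1 hairpins. Those that fell included LRWD1 (-0.54), a partner of the replication origin complex at heterochromatin, TRIM28 (-0.51), the corepressor of zinc finger proteins, CHD4 (-0.40) and DAXX (-0.32), which loads histone H3.3 at heterochromatin.

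Of 6 H3K9 demethylase genes, 3 were lower at 4 µM, 3 higher and 1 lower with G9a hairpins, and 3 higher with SUV39H1 hairpins. KDM3A, which removes H3K9 mono- and dimethylation, changed by -0.32 at 4 µM, 0.46 with G9a hairpins and 0.35 with SUV39H1 hairpins. Of 7 heat shock genes linked to satellite III transcription, 2 were higher at 4 µM, 1 higher and 3 lower with G9a hairpins, and 2 higher and 5 lower with SUV39H1 hairpins. HSPA1A and HSPA1B, near-identical copies that can share reads, rose by 0.73 and 0.76 with SUV39H1 hairpins, and HSPH1 fell by 0.79. All calls are from edgeR's quasi-likelihood test with Benjamini-Hochberg adjustment over all genes.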

How the data were processed

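The 24 U937 RNA libraries fall into 8 groups of 3 by the labels. Per the submitters' processing notes the tools were STAR and featureCounts on hg19, with no version given. Settings, repeat annotation and handling of multiply mapped reads are likewise not stated in the sources used here. The authors deposited whole-number counts for 55773 gene names and 992 repeat names, and for each repeat name the deposited table gives a summed length in bases (another value, used for CPM per kb).

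Library sizes were summed over all gene names, 31545854 to 53803704 per library, with TMM factors of 0.968 to 1.07 computed on genes alone, which leaves a general shift of repeats in view. Names were kept by filterByExpr (minimum count 10, minimum total count 15), and edgeR 4.0.16 (R 4.3.3) fitted quasi-likelihood models with 1 mean per group to all libraries, with 16 residual degrees of freedom before moderation and a biological coefficient of variation of 5.34% for repeats. Benjamini-Hochberg adjustment ran over all 929 repeat names or 20147 genes, and an adjusted p under 0.05 was a call. SE is the log2 change divided by the root of F. The fit was tested on simulated counts. Intervals come from the fit and cover the spread between libraries, and limits for a count of 0 cover counting error only.

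The rule named all 10 members, up to 4 called genes of smallest p per gene list and comparison (some given only within the counts) and the 4 repeats and 4 genes most like SST1. Members and lists were chosen with earlier results of these data known. The fit for all libraries was the one reported, and alternatives were RLE factors, repeat-table scaling, no filter, DESeq2 1.42.0, the compared libraries alone, the replicate number as a block and each library left out. Comparisons with 1 control in common share its libraries, and the labels name no batch.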

Additional observations from a re-analysis of the deposited data

Results flagged for a closer look

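The satellite names below differed where the same kind of contrast was made in another setting. The difference was tested directly (edgeR's quasi-likelihood test with Benjamini-Hochberg adjustment over all repeat names). Between the SUV39H1 hairpins, hairpin 2 had less SST1 than hairpin 4 by a log2 difference of -0.82 (adjusted p = 1.15e-10, edgeR) and less ALR/Alpha by -0.27 (adjusted p = 0.0293, edgeR), beside SUV39H1 RNA of 18.6 ± 0.403 and 21.1 ± 1.84 CPM (SD, n = 3 each). SST1 and ALR/Alpha were 2 of 8 names called lower, where 9.26% of all repeat names were called lower and 9.26% higher. The ALR/Alpha call ended without hairpin 4 replicate 2 (-0.17). SUV39H1 was not the only gene of its kind to differ between these hairpins. Of all 20147 tested genes, 20.88% were called higher and 22.03% lower with hairpin 2 than with hairpin 4. Of 11 HP1 and H3K9 methyltransferase genes, 2 were called higher and 5 lower in the same contrast. The lower ones included SUV39H1 (-0.18), SUV39H2 (-0.60), EHMT2 (-0.24) and EHMT1 (-0.17). The part of these genes in the satellite difference was not tested.

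The response to 4 µM UNC0638 differed from the response to the G9a hairpins, each taken against its own control. The log2 difference was -1.16 for SATR2, -1.04 for SATR1, -0.73 for GSATII, -0.71 for SST1 and -0.69 for HSAT4, with adjusted p = 3.78e-06, 6.49e-07, 0.00382, 1.54e-07 and 0.000179 in the same edgeR test. The median difference over all 929 repeat names was -0.33. These were 5 of 8 names called lower, where 59.5% of all repeat names were called lower and 4.31% higher. The GSATII call ended on the repeat table's scale (-0.42, adjusted p = 0.143, edgeR). Scrambled itself differed from DMSO by -0.75 in SST1, -0.67 in GSATII and -0.40 in HSAT4. This difference between the controls stands inside the contrast and cannot be told apart from the treatments. The treated libraries themselves overlapped in SST1 and GSATII and met at 3.99 CPM in HSAT4. In SATR1 and SATR2 those at 4 µM lay below all those of the G9a hairpins.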

How the results depend on the processing

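Over 112 member changes and their alternatives, 3326 of 3466 refits kept direction and side of the threshold, 39 lost and 32 gained a call and 69 changed sign, 61 of them in values called in neither fit. Scaling on the repeat table reversed SST1 with the G9a hairpins together (-0.16) and with hairpin 2 (-0.19), ALR/Alpha with the SUV39H1 hairpins together (-0.12) and with hairpin 2 (-0.25), and ALR/Alpha in the difference between the 4 µM and G9a responses (0.31). It left 1 called name at 2 µM. It changed the calls over all repeat names to 164 higher and 200 lower with G9a hairpins (639 and 38 with gene scaling), to 234 and 244 with SUV39H1 hairpins (701 and 62), to 131 and 184 with G9a hairpin 2 (614 and 30), to 122 and 169 with G9a hairpin 3 (560 and 33), to 236 and 249 with SUV39H1 hairpin 2 (653 and 59) and to 190 and 203 with SUV39H1 hairpin 4 (694 and 45). The difference between the responses became 167 higher and 133 lower (40 and 553), G9a against SUV39H1 hairpins 231 and 189 (94 and 291), 4 µM 62 and 29 (24 and 39), 2 µM 23 and 8 (7 and 38) and 4 µM against 2 µM 1 and 1 (2 and 1). HSATII with the G9a hairpins ranged from -1.93 to 0.15 when single libraries were left out and was 0.15 without the 3 libraries that stood apart. HSATII with SUV39H1 hairpin 4 ranged from -1.37 to 1.66.

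The other sign changes were in values called in neither fit. Scaling on the repeat table gave 0.027 for ALR/Alpha at 2 µM, -0.011 for SATR2 between doses, -0.13 for SST1 and -0.041 for GSATII with G9a hairpin 3, -0.35 for HSATII with SUV39H1 hairpin 4 and 0.031 for SATR1 between knockdowns. RLE factors gave 0.0011 for SATR1 between doses, -0.016 for HSATII with SUV39H1 hairpin 4 and 0.015 for ALR/Alpha between responses. DESeq2 gave 0.0023 and 0.016 for these SATR1 and ALR/Alpha values, and the compared libraries alone gave -0.0022 for HSATII with SUV39H1 hairpin 4. Without the 3 libraries HSATII was 0.64 with the SUV39H1 hairpins together, 0.98 with hairpin 2, 0.41 with G9a hairpin 3 and 0.68 between SUV39H1 hairpins, ALR/Alpha was 0.016 with G9a hairpin 2, and SATR2 was -0.027 between SUV39H1 hairpins. Leaving out single libraries, ALR/Alpha ran from -0.15 to 0.035 at 4 µM, -0.13 to 0.057 at 2 µM, -0.080 to 0.065 between doses, -0.12 to 0.016 with G9a hairpin 2, -0.0091 to 0.097 between G9a hairpins and -0.075 to 0.12 between responses. HSATII ran from -0.072 to 0.33 at 4 µM, -0.99 to 1.36 with the SUV39H1 hairpins together, -1.03 to 1.05 with hairpin 2, -1.68 to 0.41 with G9a hairpin 3 and -1.06 to 0.76 between SUV39H1 hairpins. SATR1 ran from -0.037 to 0.046 between doses and -0.11 to 0.043 between SUV39H1 hairpins. SATR2 ran from -0.19 to 0.047 at 4 µM, -0.063 to 0.17 between doses, -0.040 to 0.13 between G9a hairpins, -0.055 to 0.11 between SUV39H1 hairpins and -0.037 to 0.062 between knockdowns. HSAT4 ran from -0.026 to 0.14 between doses and -0.039 to 0.15 between G9a hairpins, SST1 from -0.057 to 0.013 between G9a hairpins and HSAT5 from -0.038 to 0.13 between knockdowns.

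Leaving out single libraries, the count of called satellite names ran from 1 to 3 at 4 µM, 1 to 2 at 2 µM, 0 to 1 between doses, 1 to 2 between SUV39H1 hairpins and 2 to 5 for scrambled against DMSO. Without the 3 libraries it was 1 between SUV39H1 hairpins. All repeat names called numbered 30 at 4 µM in the compared libraries alone (63 in all libraries), 80 at 2 µM by DESeq2 (45 by edgeR), 2 between G9a hairpins in the compared libraries alone (0 in all), and without the 3 libraries 109 between SUV39H1 hairpins (172 in all) and 43 for scrambled against DMSO (82 in all). Leaving out single libraries moved them to between 32 and 85 at 4 µM, 12 and 74 at 2 µM, 92 and 191 between SUV39H1 hairpins and 43 and 86 for scrambled against DMSO.

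Deviations of same-numbered libraries had a median r of 0.11 (-0.32 to 0.52, 43 of 84 pairs over 0.1), against -0.04 for other pairs (40 of 168 over 0.1), and 13 of 24 libraries were closest to their own number. Since not every pair was over 0.1, the numbers were not treated as pairing the samples. With the replicate block SATR1 between doses was 0.0021 without a call, SST1 passed with G9a hairpins (0.11, adjusted p = 0.0455, edgeR) and HSATII between knockdowns (-1.25, adjusted p = 0.016, edgeR). It changed no other member's call. The cause of these changes was not tested. Depth limits HSATII, HSAT5, GSAT and GSATX.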
